A study of Mus musculus with 48 samples.

Results

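The windows described are 5 stretches of mouse genome around the endothelial genes Kdr, Flt1, Tek, Cdh5 and Pecam1, followed over 3 tissues and 7 stages. All peaks of the H3K27ac lists that overlapped a window by at least 1 bp were taken, which gave 386 of the 620207 peaks in the 24 lists. They were 78 in the Kdr window, 107 in the Flt1 window, 62 in the Tek window, 34 in the Cdh5 window and 105 in the Pecam1 window. In mm9 the windows are chr5:76300001-76420000 for Kdr, chr5:148340001-148580000 for Flt1, chr4:94360001-94550000 for Tek, chr8:106590001-106700000 for Cdh5 and chr11:106480001-106630000 for Pecam1. The windows are longer than the genes, by 54.1 kb at Tek and up to 88.9 kb at Pecam1 with gene lengths of GRCm38.p6. A peak in a window is therefore not assigned to the gene.

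The chromatin came from heart, liver and forebrain of CD-1 mice with no genetic change or treatment, at E11.5, E14.5, E17.5, P0, P7, P21 and P56. Each sample pooled tissue of several animals, P56 excepted. An antibody to H3K27ac (Abcam ab4729) was used, with sonicated input DNA as the control library. Heart E11.5, forebrain E11.5 and forebrain P56 had 2 lists each, and the 18 other groups had 1. The labels do not say that numbered replicates came from separate animals or pools, so the tests measure the spread between these lists, which may be technical.

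H3K27ac is an acetyl mark on histone H3 that is carried by active promoters and enhancers. Endothelial cells line the blood vessels of all 3 tissues, and in bulk tissue their chromatin is mixed with that of cardiomyocytes, hepatocytes, blood-forming cells or neurons. Kdr encodes VEGFR2, the main signalling receptor for VEGF, and Flt1 encodes VEGFR1, which binds VEGF tightly and limits its supply. Tek encodes TIE2, the receptor for angiopoietins. Cdh5 encodes VE-cadherin, the adhesion protein of endothelial junctions, and Pecam1 encodes CD31, an adhesion protein that platelets and leukocytes carry too. A larger share of endothelial cells and more acetylation per cell cannot be told apart in these lists.

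The Kdr, Flt1 and Tek windows moved together over the lists, as given below, and the RefSeq table of promoters held these 3 of the 5 genes. Their promoter sequences are shown, since it held none for Cdh5 and Pecam1, from 250 bases before to 50 after the gene's start, in GRCm38.p6. They lie at chr5:75978406-75978705 on the minus strand for Kdr, chr5:147725962-147726261 on the minus strand for Flt1 and chr4:94739039-94739338 on the plus strand for Tek. These positions were not joined with the mm9 positions of the peaks. Capitals mark GGAA on either strand (TTCC on the strand shown), the core of sites bound by ETS factors, a family used by endothelial genes.
Kdr: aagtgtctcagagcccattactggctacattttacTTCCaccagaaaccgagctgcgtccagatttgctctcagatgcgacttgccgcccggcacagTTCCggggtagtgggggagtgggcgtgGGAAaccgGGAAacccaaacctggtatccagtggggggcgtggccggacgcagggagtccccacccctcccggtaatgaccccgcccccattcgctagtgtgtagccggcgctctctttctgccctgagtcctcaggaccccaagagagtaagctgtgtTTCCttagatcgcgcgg
Flt1: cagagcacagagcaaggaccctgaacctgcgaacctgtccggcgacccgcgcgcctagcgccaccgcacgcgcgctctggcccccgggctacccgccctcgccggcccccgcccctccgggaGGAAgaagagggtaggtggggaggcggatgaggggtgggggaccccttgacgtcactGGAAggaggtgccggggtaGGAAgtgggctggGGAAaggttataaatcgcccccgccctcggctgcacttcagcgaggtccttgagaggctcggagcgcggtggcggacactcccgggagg
Tek: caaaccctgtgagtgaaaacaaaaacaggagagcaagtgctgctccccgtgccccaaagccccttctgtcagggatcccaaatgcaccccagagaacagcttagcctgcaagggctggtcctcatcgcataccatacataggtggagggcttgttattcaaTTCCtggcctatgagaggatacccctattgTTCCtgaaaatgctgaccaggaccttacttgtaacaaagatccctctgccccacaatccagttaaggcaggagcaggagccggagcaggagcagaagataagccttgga
The Kdr promoter held GGAA 5 times, the Flt1 promoter 4 times and the Tek promoter 2 times. Of 27025 promoters of the same length, 95.9% held it at least once, 84.7% at least 2 times, 46.3% at least 4 times and 28.7% at least 5 times. The median was 3, so none of these counts was rare. The GATA core, searched as GATA on both strands, occurred 1 time in the Kdr promoter, 0 times in the Flt1 promoter and 2 times in the Tek promoter, and in 58.3% of all promoters. CG, the dinucleotide of CpG islands, occurred 19 times in the Kdr promoter, 29 times in the Flt1 promoter and 3 times in the Tek promoter, against a median of 7 over all promoters. By this count the Tek promoter was the poorest in CG of the 3.

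The H3K27ac lists held 7376 to 39133 peaks, from 4108135 to 33394166 uniquely mapped reads. The shortest list was heart P21, whose H3K27ac list held 7376 peaks where the authors' summary table gives 23852. The input list of heart P21 held 23762 peaks, and those of the other 23 input lists ranged from 17 to 865. Library names in the headers fall into a series IO and a series LPAN. All liver lists were of series LPAN, all replicate 1 forebrain lists of series IO, and heart was IO at E11.5 and P56 and LPAN at the other stages. Of the second lists, those of E11.5 were IO and that of forebrain P56 was LPAN. Because of this and of heart P21, results below are also given within a series and without heart P21 where they change.

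Heart was the tissue in which the endothelial windows were marked most fully. Of the 5 windows, 5 had a peak in heart at E11.5, E14.5, E17.5, P0, P7 and P56, and 4 at P21. In liver the count was 3, 1, 4 and 3 from E11.5 to P0, and then 5 at P7, P21 and P56. In forebrain it was 1, 3, 3, 3, 4, 2 and 4 from E11.5 to P56. For comparison, 21.9% to 61.7% of all 17571 tiles of 150 kb had a peak in a list. Inside the 5 windows, peaks held 75.1 kb in heart at E11.5 and 234.8 kb at P56 (replicate 1 lists). They held 16.1 kb and 153.3 kb in liver, and 6.94 kb and 29.9 kb in forebrain. The kb held by peaks, here and below, are bases inside the windows, and peak widths are those of whole peaks.

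**Figure D1:**
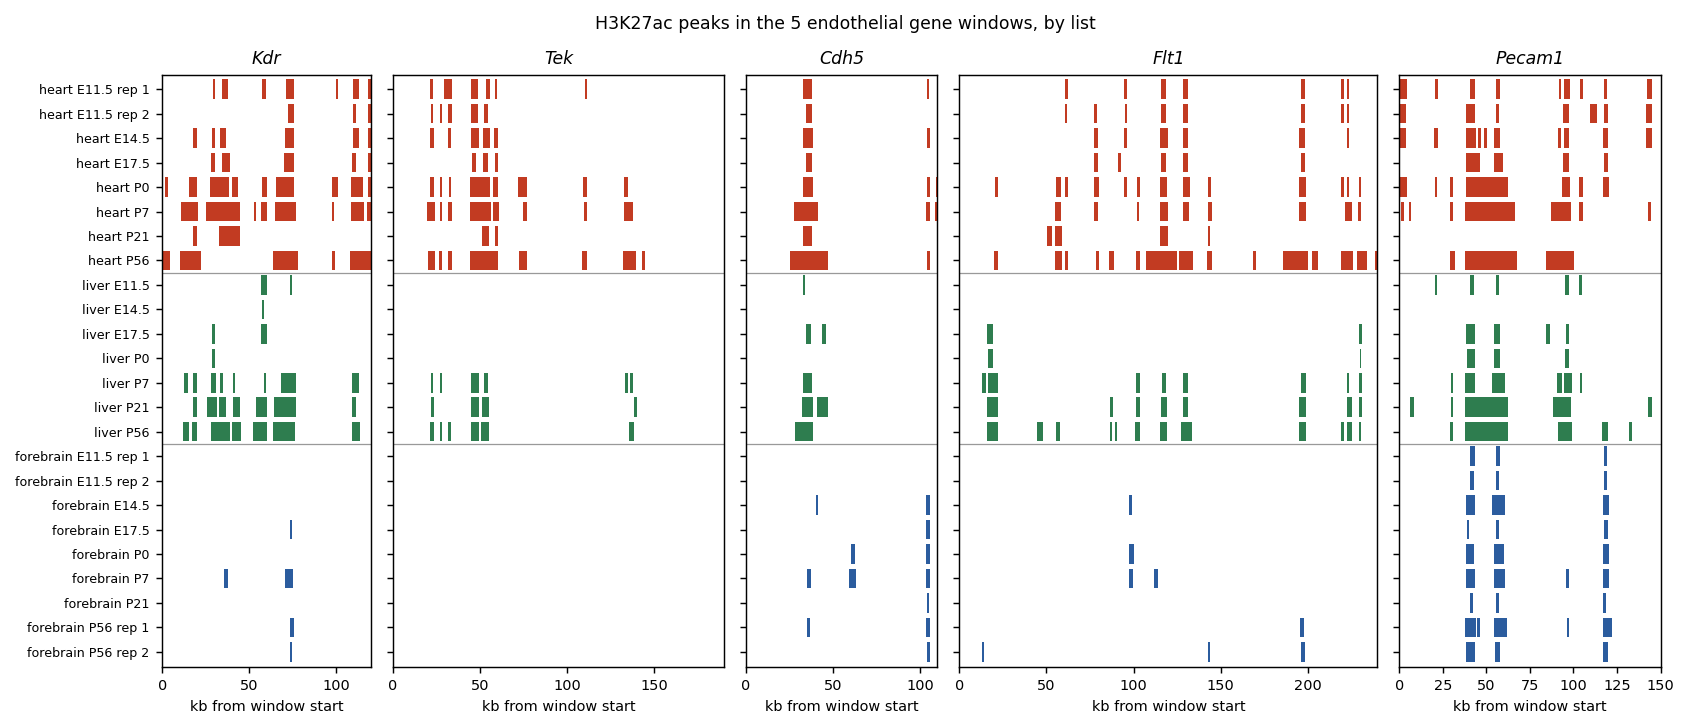
Peaks in each window by list, with the distance from the window's start in kb on the x axis and 1 row per list. Heart (red) and liver from P7 on (green) are marked at many places, the Tek window is empty in all 9 forebrain lists (blue), and the Pecam1 window has no peak at heart P21.

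The Kdr window carried peaks in every heart and liver list and in few forebrain lists. Its peaks held 17.6, 18.8, 16.0, 46.3, 57.0, 14.8 and 44.7 kb in heart from E11.5 to P56, with 7.23 kb in the second E11.5 list. In liver they held 4.70, 1.504, 4.57 and 1.66 kb from E11.5 to P0, and 23.8, 38.1 and 47.4 kb at P7, P21 and P56. In forebrain the values were 0, 0, 1.01, 0, 6.82, 0 and 2.03 kb, with 0 and 1.44 kb in the second lists of E11.5 and P56. In bases the lowest heart list (7.23 kb, the second of E11.5) lay only just above the highest forebrain list (6.82 kb, P7). Liver at P7 to P56 reached the levels of heart. How many features of the genome keep heart and forebrain apart in this way was not counted. The widest Kdr peaks were 20.2 kb at heart P56, 12.99 kb at liver P56 and 4.43 kb at forebrain P7.

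The Flt1 window showed the same order of tissues. Its peaks held 14.1, 16.3, 11.96, 30.3, 27.5, 12.96 and 77.1 kb in heart from E11.5 to P56, with 14.9 kb in the second E11.5 list. In liver they held 0, 0, 5.20, 3.82, 21.5, 26.2 and 39.1 kb. In forebrain they held 0, 1.55, 0, 2.41, 4.38, 0 and 2.40 kb, with 0 kb in the second E11.5 list and 4.88 kb in the second P56 list. Every heart list lay above every forebrain list in bases, and the share of all features with such a separation was not counted. The heart P56 list had 15 separate peaks in this window, the liver P56 list 12, and the 2 forebrain P56 lists 1 and 3.

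The Tek window was the one with no forebrain peak at any stage. Its peaks held 15.5, 15.2, 7.64, 29.5, 32.3, 6.04 and 41.6 kb in heart, with 10.9 kb in the second E11.5 list. In liver there was no peak at E11.5, E14.5, E17.5 or P0, and the peaks held 14.0, 11.9 and 17.3 kb at P7, P21 and P56. All 9 forebrain lists were at 0. These lists hold called peaks only, so acetylation in forebrain below the authors' peak threshold was not measured.

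The Cdh5 window was marked in all 3 tissues at most stages. Its peaks held 5.83, 7.31, 3.39, 8.99, 16.8, 5.59 and 22.8 kb in heart, with 3.32 kb in the second E11.5 list. In liver they held 1.502, 0, 4.82, 0, 5.63, 12.5 and 10.3 kb. In forebrain they held 0, 3.603, 2.03, 5.20, 8.61, 1.22 and 3.84 kb, with 0 and 1.84 kb in the second lists. Heart overlapped both other tissues here.

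The Pecam1 window was marked in all 9 forebrain lists, unlike the other windows. Its peaks held 21.99, 28.8, 19.5, 41.7, 48.9, 0 and 48.5 kb in heart from E11.5 to P56, with 24.03 kb in the second E11.5 list. In liver they held 9.88, 0, 12.8, 10.03, 23.2, 41.3 and 39.2 kb. In forebrain they held 6.94, 15.7, 5.40, 13.2, 16.4, 5.12 and 21.7 kb, with 6.10 and 10.2 kb in the second lists. The 0 at P21 stood alone among the heart lists. The widest Pecam1 peaks were 29.8 kb at heart P56 and 24.5 kb at liver P56, and 0.659% and 0.791% of the peaks in those lists were at least as wide, against 5.76% for the 7.58 kb peak of the first forebrain P56 list.

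**Figure D2:**
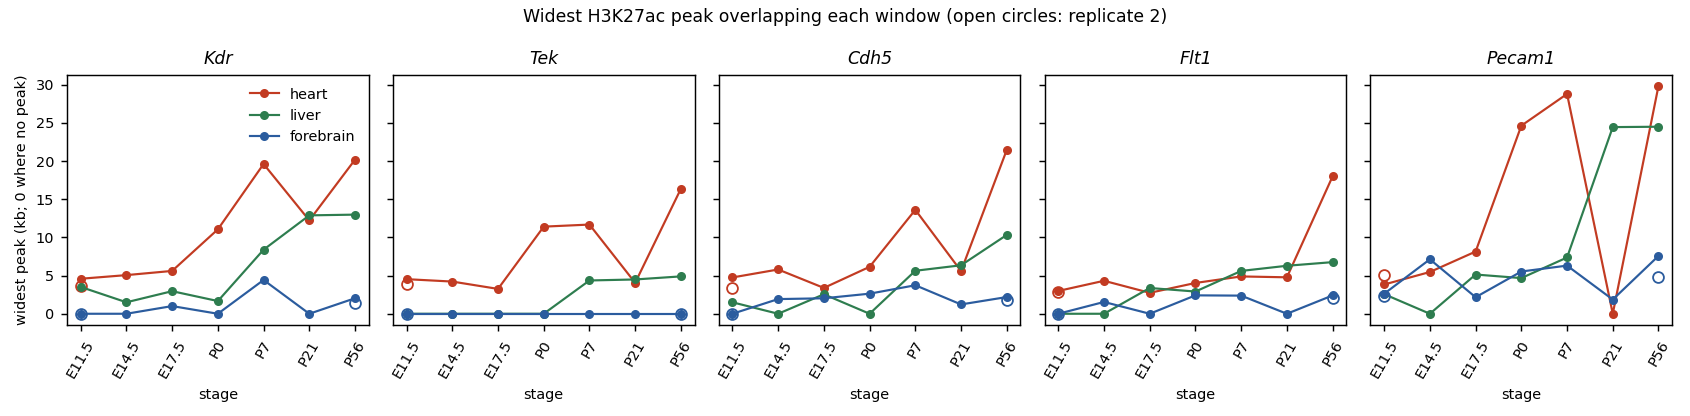
Width of the widest peak overlapping each window (kb, 0 where there was none) by stage, marked as for the covered bases. The widest peaks are in heart at P56 in every window, from 16.4 kb at Tek to 29.8 kb at Pecam1.

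To compare lists of unequal length, coverage was taken as peak bases in the window per 1000000 peak bases of the list. On this scale the Kdr window had 182 to 647 in heart (median 275), 24.5 to 363 in liver (median 71.3) and 0 to 65.0 in forebrain (median 0). The Flt1 medians were 213 in heart, 56.1 in liver and 18.6 in forebrain. The Tek medians were 207 in heart, 0 in liver and 0 in forebrain. The Cdh5 medians were 70.8 in heart, 44.1 in liver and 41.9 in forebrain. The Pecam1 medians were 279 in heart, 150 in liver and 162 in forebrain. Heart P21, low in bases, was the highest heart list on this scale at Kdr (647), Flt1 (565), Tek (264) and Cdh5 (244), since its list covered 22.9 Mb in all.

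Tissue was tested with an exact permutation of tissue labels within stages over the 21 lists, adjusted over 11971 features. The windows of Kdr (adjusted p = 0.00134), Tek (adjusted p = 0.00334) and Flt1 (adjusted p = 0.00415) passed this exact test, all with heart highest. That is 3 of 5 windows, where 55.4% of all features passed and 16.4% passed with heart highest. Cdh5 did not pass (exact test, adjusted p = 0.062), and neither did Pecam1 (exact test, adjusted p = 0.903). Without P21 in any tissue the adjusted p of Pecam1 was 0.0313 in the exact test.

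Which windows passed depended on how many peaks each list held. When every list was cut to its 7376 best-ranked peaks, the number in the heart P21 list, Cdh5 (exact test, adjusted p = 0.0445) and Pecam1 (exact test, adjusted p = 0.0327) passed, with heart highest. Flt1 (exact test, adjusted p = 0.0703), Kdr and Tek (both 0.158) did not. These 3 windows were then at 0 in every liver and forebrain list, so heart alone was marked. With so few lists above 0, the exact test could not go below p = 0.111 at Kdr and Tek or p = 0.037 at Flt1. Their failure to pass is therefore no sign of a smaller difference between tissues. Cdh5 also passed with a constant of 50 added in place of 10 (exact test, adjusted p = 0.0313) and with windows shortened by 20 kb at each end (exact test, adjusted p = 0.0325). With peaks that overlapped any input peak removed, Kdr passed with liver highest, at mean log2 coverage of 6.16 in heart, 7.15 in liver and 3.64 in forebrain. This turned on the heart P21 input list. With that list not used in the removal, a setting chosen after seeing the data, Kdr passed with heart highest (exact test, adjusted p = 0.00134). Its means were then 8.31 in heart, 6.75 in liver and 4.19 in forebrain. Over 16 alternatives each, the adjusted p of the exact test lay between 0.00106 and 0.996 at Kdr, 0.00229 and 0.996 at Flt1, 0.00287 and 0.996 at Tek, and 0.0313 and 0.996 at Cdh5 and Pecam1. The 0.996 came from series IO alone, where the exact test cannot go below p = 0.5. Outside the tests within a series, the highest adjusted p of the exact test was 0.158 at Kdr and Tek and 0.0703 at Flt1. It was 0.246 at Cdh5 and 0.987 at Pecam1, both with trimmed peaks.

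Pairs of tissues were compared with limma, in which 3 residual degrees of freedom come from the 3 groups with 2 lists. None of these groups was of liver. The forebrain P56 pair holds 1 list of each series. At Kdr, Tek, Cdh5 and Flt1 both forebrain E11.5 lists were at 0, so that pair shows no spread and makes their errors smaller. With equal list lengths, Kdr, Tek and Cdh5 were at 0 in all lists of these 3 groups. Limma calls at these windows under that setting rest on no spread between lists. Heart was higher than forebrain at 4 of 5 windows, where 27.5% of all features were higher and 66.8% differed in either direction. The log2 difference was 4.01 ± 0.20 at Kdr (SE, adjusted p = 0.000375 by limma), 4.32 ± 0.08 at Tek, 3.53 ± 0.24 at Flt1 and 1.21 ± 0.13 at Cdh5. Tek was at 0 in every forebrain list, so its difference is set by the added constant and gives no fold: it was 7.58 with 1 added and 2.28 with 50 added. Kdr, at 0 in most forebrain lists, had 6.04 and 2.45 with those constants. The error at Tek comes from the heart E11.5 pair and the trend over features. Pecam1 did not pass (0.18 ± 0.12). It passed at 0.88 without heart P21, 0.86 without P21 in any tissue, 0.90 with bases not scaled to the list, 0.35 with 50 added and 2.33 with input peaks removed. Cdh5 did not pass with peaks trimmed to 1 kb (0.42), and with input peaks removed it was lower in heart (-1.31). The median of all features was -0.24 for this contrast, and 0.17 when bases were not scaled to the list. The 4 windows were higher in heart on both scales.

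Heart was higher than liver at 5 of 5 windows by limma, where 29.1% of all features were higher. The log2 difference was 2.78 ± 0.08 at Tek, 2.01 ± 0.25 at Flt1, 1.49 ± 0.21 at Kdr, 1.47 ± 0.14 at Cdh5 and 0.54 ± 0.12 at Pecam1 (SE). The Pecam1 difference was 1.24 without heart P21, and it did not pass without either heart E11.5 list (0.55 and 0.52). With input peaks removed 1 of 5 windows passed, Tek at 2.63, and Kdr was -1.14. With the heart P21 input list not used in that removal, 5 of 5 passed with heart higher. With trimmed peaks 3 of 5 passed, at 2.56 for Tek, 1.84 for Flt1 and 1.04 for Cdh5.

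Liver was higher than forebrain at 3 of 5 windows, where 28.2% of all features were higher. These were Kdr at 2.52 ± 0.20, Tek at 1.55 ± 0.08 and Flt1 at 1.52 ± 0.24 (SE). With equal list lengths none of these 3 passed, and Kdr, Tek and Flt1 were at 0 in every liver and forebrain list of the exact test. Flt1 did not pass with input peaks removed (2.01). Cdh5 (-0.25) and Pecam1 (-0.36) did not pass. Cdh5 was lower in liver and passed at -0.96 with equal list lengths, -2.26 with input peaks removed, -0.62 with trimmed peaks, -0.68 with 1 added and -0.52 without P21. Pecam1 passed at -0.81 with 1 added, at -0.61 without P21 and, with liver higher, at 2.10 with input peaks removed. The order of liver and forebrain at these 2 windows is therefore not given.

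Stage by stage, the Tek, Cdh5 and Flt1 windows were higher in heart than in liver at 7 of 7 stages, and Kdr at 6 of 7. At P56 the Kdr difference was -0.38 on the log2 scale, with liver the higher. Within series LPAN, which holds heart and liver at E14.5 to P21, Kdr, Tek, Cdh5 and Flt1 were higher in heart at 5 of 5 stages, and Pecam1 at 4 of 5. The mean differences there were 1.98 at Kdr, 2.88 at Tek, 1.70 at Cdh5, 1.82 at Flt1 and 0.57 at Pecam1. The exact test within this series cannot go below p = 0.0625, which those 4 windows reached. Within series IO, heart was higher than forebrain at both shared stages, E11.5 and P56, at all 5 windows. The mean differences were 3.90 at Kdr, 4.52 at Tek, 2.38 at Cdh5, 4.06 at Flt1 and 0.59 at Pecam1. The smallest p of the exact test there is 0.5. Among replicate 1 lists, no series holds liver with forebrain. The second forebrain P56 list was of series LPAN, as was liver P56. Coverage in liver P56 and in that list was 363 and 19.4 at Kdr, 299 and 65.8 at Flt1, and 132 and 0 at Tek. It was 79.0 and 24.8 at Cdh5, and 300 and 138 at Pecam1.

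**Figure D3:**
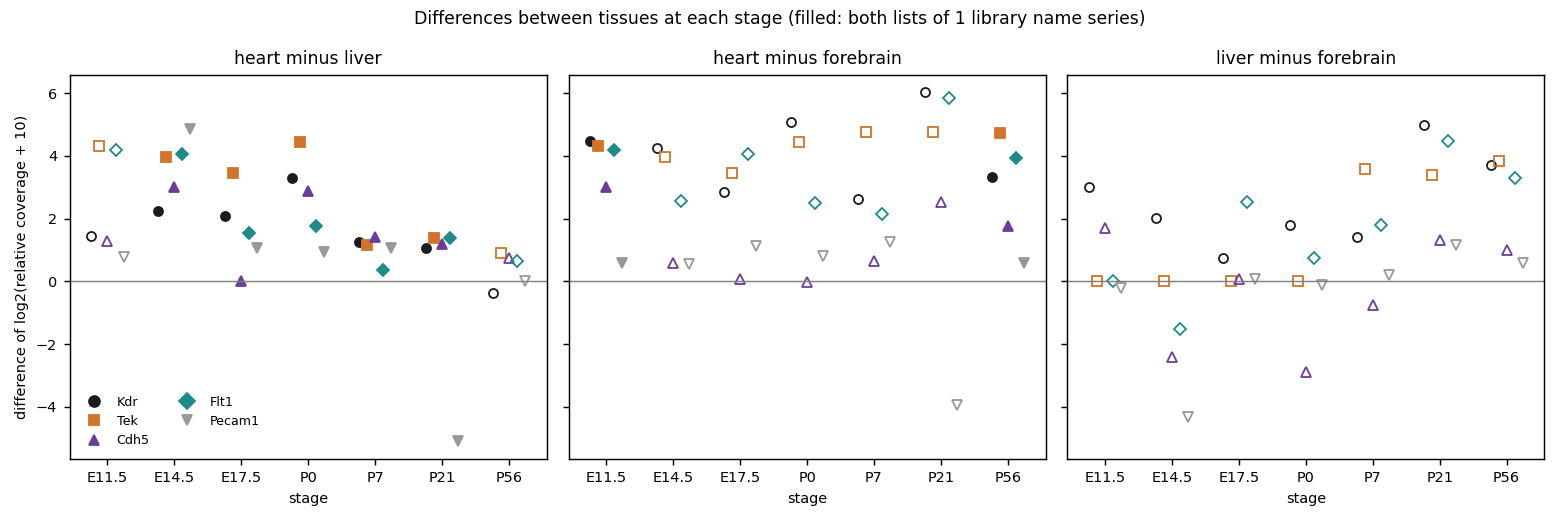
Difference of log2(relative coverage + 10) between tissues at each stage for the 5 windows, with filled marks where both lists are of 1 library name series. Heart minus liver shrinks after P0 at Tek, where it is 4.44 at P0 and 1.16 at P7, and the Pecam1 mark at P21 lies at -5.09.

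At E11.5, where heart and forebrain had 2 lists each, limma called 4 of 5 windows higher in heart, where 18.1% of all features were higher. The log2 difference was 4.28 ± 0.48 at Flt1, 4.13 ± 0.16 at Tek, 3.94 ± 0.40 at Kdr and 2.72 ± 0.26 at Cdh5 (SE). The 4 windows were at 0 in both forebrain lists, so these values are set by the added constant and give no fold. Pecam1 had coverage of 265 and 320 in heart and 174 and 215 in forebrain, and did not pass. Flt1 did not pass when either heart E11.5 list was left out, at 4.38 and 4.17. Only 1 of 5 windows passed with equal list lengths, Flt1 at 3.53.

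Postnatal lists (P0, P7, P21 and P56) were set against prenatal lists (E11.5, E14.5 and E17.5). Over the 3 tissues together only Flt1 rose, by 1.75 on the log2 scale, with an adjusted p of 0.0389 in an exact permutation of stages within tissues. That is 1 of 5 windows, where 2.46% of all features were higher postnatally. Differences at Tek (1.15), Kdr (1.05), Cdh5 (0.96) and Pecam1 (0.37) did not pass, with adjusted p of 0.130, 0.157, 0.191 and 0.76 in the exact test. The Flt1 call was lost under 7 of the other settings tried, among them bases not scaled to the list.

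In liver 5 of 5 windows rose after birth by limma, where 21.4% of all features were higher. The log2 difference was 3.23 ± 0.36 at Flt1, 2.70 ± 0.12 at Tek, 2.02 ± 0.18 at Pecam1, 1.60 ± 0.30 at Kdr and 0.88 ± 0.20 at Cdh5 (SE). No liver group had 2 lists, so these errors come from the heart and forebrain pairs. They hold no spread between liver lists or between stages. At Tek the mean coverage was 84.5 ± 58.4 in postnatal and 0 in prenatal liver lists (SD, n = 4 and 3), with P0 still at 0. Liver P0 lay within or below the range of the prenatal liver lists, except at Flt1 (56.1 against 47.5 at E17.5), and P7, P21 and P56 lay above P0 in every window. With equal list lengths 0 of 5 liver windows passed, and Kdr, Tek, Cdh5 and Flt1 were at 0 in every liver list. With input peaks removed 2 of 5 passed, Flt1 at 4.11 and Tek at 3.93.

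In heart 3 of 5 windows rose after birth by limma, where 12.8% of all features were higher. These were Kdr at 1.15 ± 0.29, Cdh5 at 1.10 ± 0.19 and Tek at 0.82 ± 0.11 (SE). Pecam1 fell by 1.04 ± 0.17. That is 1 of 5 windows, where 27.05% of all features were lower. In either direction 4 of 5 windows passed, where 39.8% of all features did. These calls leaned on heart P21. Without it the values were 0.93 at Kdr, 0.82 at Cdh5, 0.78 at Tek and 0.23 at Pecam1, and of these only Tek still passed. With equal list lengths 4 of 5 heart windows rose, at 4.65 for Cdh5, 4.20 for Kdr, 3.58 for Tek and 0.73 for Flt1, so heart and not liver then had the most calls. The calls at Cdh5, Kdr and Tek rest on no spread, since all lists of the groups with 2 lists were then at 0. Over the 3 tissues, none of these 4 windows then passed the exact test of stages (adjusted p from 0.110 to 0.969). None of the 5 heart windows passed with input peaks removed. In forebrain 1 of 5 windows rose, Cdh5 at 0.95 ± 0.18, where 15.7% of all features were higher. At E17.5 and P21 the only forebrain element of this window was chr8:106693221-106695890, near the window's end. As said below, whether it belongs to Cdh5 was not tested.

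Of the 10 calls within tissues, 4 held whichever of the 6 replicate lists was left out: Tek in heart, and Tek, Flt1 and Pecam1 in liver. Leaving out either forebrain E11.5 list left 5 of 10, without Kdr and Cdh5 in heart, Kdr and Cdh5 in liver and Cdh5 in forebrain. Both lists of that pair were at 0 at Kdr and Cdh5, so the pair held no spread there.

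In forebrain alone, P56 was set against E11.5 with 2 lists each. The second P56 list was of series LPAN and the others of series IO, so stage and series are partly mixed here. By limma 2 of 5 windows rose, where 15.8% of all features were higher. They were Flt1 at 2.29 ± 0.48 and Cdh5 at 1.98 ± 0.26 (SE). Flt1 coverage was 21.6 in the first P56 list, 65.8 in the second and 0 in both E11.5 lists. Cdh5 coverage was 34.6 in the first P56 list, 24.8 in the second and 0 in both E11.5 lists. In the second P56 list all of it lay in the element near the end of the Cdh5 window. Neither window passed with equal list lengths (both 0) or with input peaks removed (1.55 at Flt1 and 2.39 at Cdh5). Without either forebrain E11.5 list neither window passed, at the same values of 2.29 and 1.98. Without the first forebrain P56 list Cdh5 did not pass (1.80), and without the second Flt1 was 1.66.

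The size of the postnatal change was then compared between tissues by limma. Heart and liver differed at 3 of 5 windows, where 35.5% of all features differed. The heart change minus the liver change was -1.89 ± 0.17 at Tek, -2.26 ± 0.50 at Flt1 and -3.06 ± 0.24 at Pecam1 (SE). The Pecam1 value was -1.79 without heart P21. Liver and forebrain differed at 3 of 5 windows, where 34.5% of all features differed. The liver change was larger by 2.70 ± 0.16 at Tek, 2.08 ± 0.49 at Flt1 and 2.05 ± 0.24 at Pecam1. Heart and forebrain differed at 2 of 5 windows, where 35.2% of all features differed, by 0.82 ± 0.16 at Tek and by -1.0 ± 0.23 at Pecam1, and the Pecam1 value was 0.27 without heart P21. Tek was at 0 in every forebrain list, so no forebrain change could be measured there. The Tek differences from forebrain are the heart and liver changes themselves. Leaving out either forebrain E11.5 list left 4 of these 8 calls, which were Tek and Pecam1 against liver in both pairs. Heart minus liver passed in the opposite direction at Tek (3.58) and Flt1 (0.73) with equal list lengths, where the heart change was also the larger at Kdr (4.20) and Cdh5 (4.65). At Tek, Kdr and Cdh5 these calls rest on no spread between lists, as given for heart. The differences of liver and forebrain at Tek and Flt1 were then 0. Of the 8, 2 passed with input peaks removed, Tek at -3.35 for heart against liver and at 3.93 for liver against forebrain.

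Merged over the lists, the peaks formed 53 elements, 4 in the Cdh5 window and up to 22 in the Flt1 window, and 52 of them had a peak in the 21 lists. Of these 52, 46 were marked in heart at some stage, 34 in liver and 11 in forebrain. These are 88.5%, 65.4% and 21.2% of them, where 58.3%, 49.1% and 56.6% of all 85254 elements of the genome were marked in heart, liver and forebrain. The most frequent pattern was heart with liver and without forebrain, at 22 elements (42.3%, where 9.65% of all elements had it). A further 15 were marked in heart alone, 4 in liver alone and 2 in forebrain alone, and 8 in all 3 tissues. The heart-only share was 28.8%, where 18.7% of all elements were heart-only. At 10 elements (19.2%, where 26.98% of all elements did so) the mark was in 1 list of 21. Between replicate lists, the 2 heart E11.5 lists shared 18 of 28 elements of the windows, the forebrain P56 lists 5 of 9 and the forebrain E11.5 lists 2 of 2.

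In each window the element in the most lists was marked in heart at 6 or 7 stages. At Kdr it was chr5:76363529-76378049, present at 6 stages in heart, 4 in liver and 3 in forebrain, and the element with the most bases was chr5:76325372-76345193, present at 6 stages in heart, 5 in liver and 1 in forebrain. At Flt1 it was chr5:148447231-148465237, present at 7 stages in heart, 3 in liver and 1 in forebrain. At Tek it was chr4:94404157-94420803, present at 7 stages in heart, at P7, P21 and P56 in liver and at 0 in forebrain. Within its own list this Tek peak ranked at percentile 62.4 at heart E11.5 and 90.9 at heart P56, and at 46.9 at liver P56 (100 for the authors' best peak). At Cdh5 it was chr8:106615409-106636943, present at 7 stages in heart, 5 in liver and 3 in forebrain.

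Some elements were marked in a single tissue. Of the 15 in heart alone, the naming rule takes 1 per window with at least 3 stages: chr5:76397419-76400989 at Kdr (4 stages), chr5:148417112-148420449 at Flt1 (5 stages), chr4:94468663-94471389 at Tek (4 stages) and chr11:106480241-106484441 at Pecam1 (4 stages). Of the 2 in forebrain alone, chr5:148437464-148440028 at Flt1 was marked at E14.5, P0 and P7. None of the windows had an element in at least 3 liver stages and no other tissue.

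At Pecam1 and Cdh5 some of the forebrain marks were at elements with few or no liver marks. At Pecam1 chr11:106517606-106547453 was present at 6 stages in heart, 6 in liver and 7 in forebrain, more lists than any other element of the windows. The element chr11:106596544-106601973, named after its values were seen, was present at 4 stages in heart, 1 in liver and 7 in forebrain. At Cdh5 the element chr8:106693221-106695890, also named after its values were seen, was present at 5 stages in heart, 0 in liver and 6 in forebrain, and it was the best-ranked forebrain element of that window in 6 lists of the 7 stages. It lay near the end of the window. In GRCm38.p6 the neighbours of Cdh5 are Cdh11 and Bean1, and those of Pecam1 are Tex2 and Milr1. Whether these elements belong to Cdh5 or Pecam1 was not tested.

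Over the 21 lists, log2 coverage of the Kdr, Tek and Flt1 windows moved together. Pearson's r was 0.90 for Kdr with Tek, 0.90 for Tek with Flt1 and 0.85 for Kdr with Flt1. Cdh5 followed less closely, at 0.63 with Kdr, 0.67 with Tek and 0.71 with Flt1. Pecam1 had r of 0.09 with Kdr and 0.23 with Flt1, and 0.43 and 0.63 over the 20 lists without heart P21. Within liver, over 7 lists, the 10 pairs had r from 0.58 to 0.95, and from 0.50 to 0.94 without P21. Within heart, over 7 lists, r ran from -0.67 to 0.88, and from 0.32 to 0.89 without P21. Within forebrain the 6 pairs without Tek, which was at 0 throughout, had r from -0.23 to 0.66. These are descriptions, as windows of 1 list share its library, depth and length.

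Tiles elsewhere in the genome had patterns at least as close as those between the windows. The tile most alike Kdr was chr1:45300001-45450000 (r = 0.94), and that most alike Flt1 was chr12:15600001-15750000 (r = 0.96). For Tek it was chr2:125100001-125250000 (r = 0.97), for Cdh5 chr10:20100001-20250000 (r = 0.91) and for Pecam1 chr2:58350001-58500000 (r = 0.97). The median r over all tiles lay between -0.11 for Kdr and 0.19 for Pecam1.

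The empty Pecam1 window of heart P21 stood beside a marked input. The 23 other input lists had 0 peaks in the 5 windows, and the heart P21 input list had 18. Of these 18 peaks, 16 overlapped a peak of the liver P21 H3K27ac list, 14 each one of heart P7 and of heart P56, and 4 one of the heart P21 H3K27ac list. Over the genome, 88.5% of the heart P21 input peaks overlapped liver P21 H3K27ac peaks and 4.97% heart P21 H3K27ac peaks. Of the 7376 heart P21 H3K27ac peaks, 91.3% overlapped heart P56 peaks and 31.0% liver P21 peaks. The part of this input in the heart P21 values was not tested.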

How the data were processed

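The 24 H3K27ac and 24 input libraries each had 1 deposited list of peaks, holding positions and the authors' rank of each peak in its list. The submitters' processing notes name BWA, MACS 1.4 and build mm9. There was 1 list per library, and the sources used here give no further settings. The authors also deposited a summary table of counts of reads and peaks per library. The stages labelled P0 and P21 are written P1 and P20 there and in the headers. No mm9 gene annotation was used.

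The 5 gene windows and the lists and tests were chosen with earlier results of these data known. A peak counted for a window it overlapped by at least 1 bp, and covered bases are those inside the window. Peak widths are those of whole peaks, also beyond the window. Coverage was peak bases per 1000000 peak bases of the list. The windows were tested with tiles of 150 kb covered in at least 3 of 21 lists (11971 features in all) on log2(coverage + 10). The 21 lists are 1 per tissue and stage, replicate 1 where a group had 2. Tissues were compared by permuting tissue labels within stages, and postnatal with prenatal lists by permuting stages within tissues, both exact and two-sided. The limma 3.58.1 fits used all 24 lists with a mean per tissue and stage, and the contrasts average stages. Benjamini-Hochberg adjustment ran over the 11971 features at 0.05. Peaks that overlapped over the 24 lists were merged into elements. By rule, the text names per window the element in the most lists, the one with the most covered bases, and, per tissue, the one at most stages and in no other tissue, where it had at least 3 stages. The 3 tiles most alike each window were chosen by Pearson r over the 21 lists, and the first is named. The tests were checked on simulated data. Python 3.11.15 and R 4.3.3 were used. Alternatives covered scaling, list length, peak width, inputs, pseudocount, filter, tile size, window size, left-out lists and replicate number. Positions are 1-based.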

Additional observations from a re-analysis of the deposited data

Results flagged for a closer look

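The postnatal change differed between tissues at 8 of the 15 pairs of window and tissues, by a limma contrast of the changes. At Tek the change in heart exceeded that in forebrain by 0.82 (adjusted p = 0.0299 by limma), the change in heart minus that in liver was -1.89 (adjusted p = 0.00388), and the change in liver exceeded that in forebrain by 2.70 (adjusted p = 0.00131). The Tek values against forebrain repeat the heart and liver changes, since every forebrain list was at 0 there. At Flt1 heart against liver was -2.26 (adjusted p = 0.0397 by limma) and liver against forebrain 2.08 (adjusted p = 0.0479). At Pecam1 heart against forebrain was -1.0 (adjusted p = 0.0446 by limma), heart against liver -3.06 (adjusted p = 0.00295) and liver against forebrain 2.05 (adjusted p = 0.0078).

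The input list of heart P21 entered no comparison except as an alternative in which peaks overlapping input peaks were removed. It had peaks in every window where the 23 other input lists had 0. It held 5 peaks at Kdr, 1 at Tek, 2 at Cdh5, 3 at Flt1 and 7 at Pecam1.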

How the results depend on the processing

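The exact tissue test called 3 windows and called 0 within series LPAN and 0 within series IO, where its smallest p is too large to pass. It called 2 with equal list lengths, Cdh5 and Pecam1. Kdr, Tek and Flt1 were then at 0 outside heart and reached the smallest p of the exact test for such values, which did not pass. The Flt1 call over the 3 tissues (1 window) became 0 with bases not scaled, equal list lengths, peaks trimmed to 1 kb, peaks overlapping input peaks removed, a pseudocount of 1, windows shortened by 20 kb at each end, and, chosen after seeing the data, forebrain left out. The 10 postnatal calls within tissues were 5 with equal list lengths (4 in heart, 1 in forebrain and 0 in liver), 5 with trimmed peaks, 2 with input peaks removed, 6 with shortened windows and 6 without P21. The 8 differences of change were 2 with input peaks removed and 4 without P21. There were 9 with equal list lengths, of which 4 set the heart change above the liver change, and those at Tek and Flt1 were opposite to the calls with all peaks. With equal list lengths, limma calls at Kdr, Tek and Cdh5 rest on no spread between lists, as given above. The 4 E11.5 calls were 1 with equal list lengths. The 2 calls of P56 against E11.5 in forebrain were 0 with equal list lengths, 0 with input peaks removed, 1 with a pseudocount of 50 and 1 with shortened windows. With each replicate list left out in turn, the calls ranged from 11 to 12 for pairs of tissues, 5 to 10 within tissues, 4 to 8 for differences of change, 3 to 4 at E11.5 and 0 to 2 for forebrain P56. With input peaks removed but the heart P21 input list not used, also chosen after seeing the data, the calls within tissues were 9 and the differences of change 8. For pairs of tissues, heart was then higher than liver at 5 windows and than forebrain at 4, and liver was higher than forebrain at 3.

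With a replicate block the calls were 11 for pairs of tissues, 7 within tissues, 4 for differences of change, 4 at E11.5 and 1 for forebrain P56. The labels name nothing that samples of the same replicate number share beyond the number. Deviations between replicates correlated at 0.030 to 0.043 between the groups, over 11971 features.

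Some values turned their sign. With input peaks removed, Kdr had -1.14 for heart minus liver, -0.31 for its heart change, -0.87 for heart against forebrain change and -0.42 for liver against forebrain change. Cdh5 had -1.31 for heart minus forebrain, -1.03 for its liver change and -0.39 for heart against forebrain change. Pecam1 had -0.44 over the 3 tissues, 2.10 for liver minus forebrain, -0.38 in liver, 0.24 in forebrain, -0.62 for liver against forebrain change and 0.96 for forebrain P56.

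With equal list lengths, heart against liver change was 4.20 at Kdr, 3.58 at Tek and 0.73 at Flt1, and heart against forebrain change at Flt1 0.73. Pecam1 had 2.29 for the heart change, 1.27 for the forebrain change, 1.02 for heart against forebrain, 1.33 for heart against liver, -0.31 for liver against forebrain and 2.96 for forebrain P56. With trimmed peaks, Cdh5 in liver was -0.15, Pecam1 over the 3 tissues -0.21 and its heart minus forebrain -0.21, and heart against forebrain change was -0.35 at Kdr and -0.54 at Cdh5.

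With bases not scaled, liver minus forebrain was 0.16 at Cdh5 and 0.26 at Pecam1, Cdh5 had changes of -0.059 for heart against liver and 0.24 for liver against forebrain, and Pecam1 had 0.43 for its forebrain change and 1.09 for forebrain P56. With a pseudocount of 1, Pecam1 heart minus forebrain was -0.25, and Cdh5 had changes of -0.77 for heart against forebrain and -0.058 for heart against liver. With a pseudocount of 50, heart against forebrain change was 0.40 at Flt1 and liver against forebrain change 0.076 at Cdh5. With shortened windows Cdh5 had 0.88 for liver minus forebrain and 0.045 for that pair's change.

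Without P21 the Pecam1 heart change was 0.23, its forebrain change 0.0069 and heart against forebrain change 0.22, and that comparison gave -0.012 at Kdr and -0.27 at Cdh5. Without heart P21 Pecam1 had 0.23 for the heart change and 0.27 against forebrain, and Cdh5 had -0.13 against forebrain and -0.064 against liver. Pecam1 in forebrain was 0.014 without the second forebrain E11.5 list and 0.024 without the second P56 list, with -0.094 as the lowest of these values, without the first P56 list. P56 against E11.5 at Pecam1 was 0.012 without the second P56 list and -0.46 without the first. The causes were not tested.

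Over all 5 windows and all the tests, passed or not, 1255 values under an alternative were compared. Of these, 1006 kept their side of the threshold without turning their sign, 151 no longer passed and 45 passed newly. A further 53 reversed, which are those just listed. The exact tissue test gives no sign, so a change of the highest tissue, as at Kdr with input peaks removed, is not among the reversed. Peak lists hold no signal height, most groups have 1 list, and regions below the authors' threshold count as 0.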
